A study of Mus musculus with 4 samples.

Results

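The 10 genes described here mark mast cells, basophils and eosinophils: Cpa3, Hdc, Slc18a2, Fcer1a, Ms4a2, Mcpt8, Epx, Prg2, Prg3 and Il1rl1. They were taken as a list of lineage genes, proposed with results of these arrays known. Every probe set whose platform gene symbol was one of them alone was used. This gave 11 probe sets for 9 of the 10 genes, among 18193 genes on an Affymetrix array of 45101 probe sets. No level is given for Il1rl1, which encodes the receptor for interleukin-33; only its promoter is described.

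RNA was measured on 4 arrays, 1 for each of 4 sorted populations of mouse bone marrow. LSK cells lack lineage markers and carry Kit and Sca1, a gate known to hold the stem cells. The MP gate, for myeloid progenitors, differs in having no Sca1. Marrow of 3 wild-type and of 3 Fbw7-deficient mice was pooled by genotype and then sorted through both gates, so that both arrays of a genotype come from the same animals. Fbw7 is the substrate-binding subunit of a ubiquitin ligase, and the study's title concerns its control of stem cell quiescence. All groups, wild-type included, had been given polyI:C, which mimics viral RNA and induces interferon, in 3 doses of 20 ug/g, and marrow was taken 2 weeks later. The labels used here name no Fbw7 allele, no Cre line and no age. The targeted gene itself, Fbxw7, was not uniformly lower on the arrays labelled Fbw7-deficient. Its brighter probe set gave 1355 and 1103 in LSK and 691 and 958 in MP, wild-type first, a log2 difference of -0.30 in LSK and 0.47 in MP, and the other probe set gave 0.09 and 0.44. Whether these probe sets lie in the deleted part was not examined, so they do not check the genotype labels, and Fbw7-deficient below means the array labelled so. With no replicate in any group there was no error between replicates and no test, and a difference was called at 2-fold between single arrays.

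Mast cells, basophils and eosinophils are granulocytes of allergic and antiparasitic responses, and their precursors arise among Kit-positive myeloid progenitors under GATA factors, C/EBP factors, KIT and the receptors for interleukin-3 and interleukin-5. Mast cells and basophils make histamine, store it with proteases in granules and release it when antigen crosslinks IgE on their high-affinity receptor. Eosinophils store cationic proteins and a peroxidase instead. Granule genes of this kind are already transcribed in progenitors before the cells mature.

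Fbw7-deficient cells had lower levels of Cpa3 and Slc18a2 in both gates, with both Fbw7-deficient values of Slc18a2 under the level filter described below. Both genes belong to the mast cell markers used here, but Hdc and Fcer1a, of the same markers, did not follow them. The eosinophil genes Epx and Prg3 were more than 2-fold higher in Fbw7-deficient MP and not higher in Fbw7-deficient LSK. Siglecf, of the eosinophil markers used here, did not follow them and was lower in both gates, short of 2-fold. The IgE receptor gene Fcer1a was above that filter in Fbw7-deficient MP alone. The basophil protease gene Mcpt8 was higher in Fbw7-deficient cells of both gates, past 2-fold in LSK. The histamine synthesis gene Hdc was higher in LSK and lower in MP, short of 2-fold on each side. Prg2 and Ms4a2 differed little between genotypes and by more than 3-fold between the gates on their brighter probe sets.

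Of the 9 measured genes, all passed a level filter, which asks that the highest of the 4 arrays reach an intensity of 157, the median of all values. A level under it is not shown to be above background. For 7 genes all 4 arrays lay above it. Slc18a2 and Fcer1a passed through some arrays only, so a difference between arrays was built into their passing. Their differences are therefore also given with every value under the filter raised to it, a setting chosen after the data were seen. Intensities are given on the linear RMA scale and differences as log2 of intensity. To place the differences without replicates, the 2 brightest probe sets of each of 5279 genes were compared. Their log2 genotype differences disagreed by a median of 0.19 in LSK and 0.17 in MP, and by more than 0.56 and 0.49 for 10% of the genes. This covers the disagreement of probes and not that between animals.

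**Figure D1:**
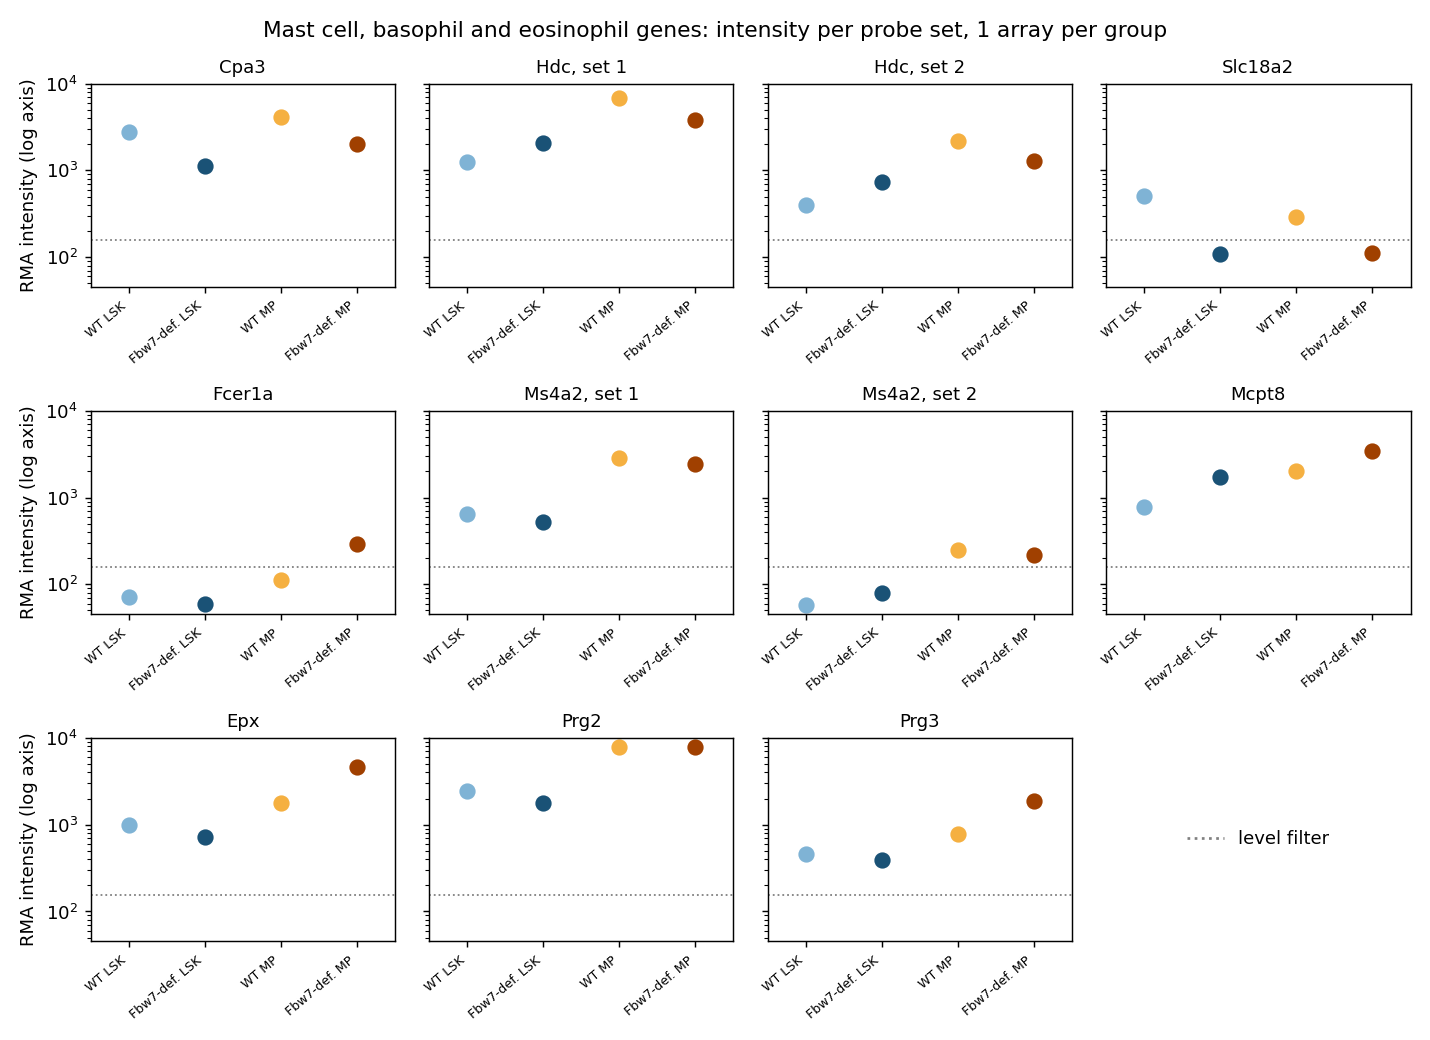
RMA intensity on a log axis for each of the 11 probe sets, with 1 point per array and the level filter of 157 dotted. Cpa3 and Slc18a2 lie lower in both Fbw7-deficient arrays than in their wild-type partners, while Epx, Prg3 and Fcer1a stand highest in Fbw7-deficient MP.

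Cpa3 encodes carboxypeptidase A3, an exopeptidase stored in mast cell granules (chr3:20215616-20242209; positions here are of whole genes in GRCm38.p6). It read 2777 (wild-type) and 1121 (Fbw7-deficient) in LSK, and 4113 and 2012 in MP. Both Fbw7-deficient arrays were thus below both wild-type arrays. The log2 genotype difference was -1.31 in LSK, 2.48-fold lower, and -1.03 in MP, 2.04-fold lower. The MP value lies close to the 2-fold line.

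Slc18a2 encodes the vesicular monoamine transporter VMAT2, which loads histamine and other amines into secretory vesicles (chr19:59260878-59296012). Its intensities were 508 (wild-type) and 109.7 (Fbw7-deficient) in LSK, and 287 and 111 in MP. The wild-type arrays differed from each other, while the Fbw7-deficient arrays lay together under the level filter. Its log2 difference of -2.21 in LSK, 4.63-fold lower, was reached or passed in that direction by 8 of 12239 genes, Slc18a2 included. In MP the difference was -1.37, 2.59-fold lower. Both folds rest on Fbw7-deficient values under the filter, so their exact size and the place among all genes are not established. With those values raised to the filter the differences were -1.70 in LSK and -0.87 in MP, short of 2-fold in MP.

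Hdc encodes histidine decarboxylase, the enzyme that makes histamine (chr2:126593659-126624025). On its brighter probe set it read 1244 (wild-type) and 2056 (Fbw7-deficient) in LSK, and 6879 and 3789.7 in MP. The wild-type arrays were the extremes and the Fbw7-deficient arrays lay between them. The log2 genotype difference was 0.72 in LSK and -0.86 in MP. The other probe set gave 0.87 and -0.75, from intensities of 402, 736, 2171 and 1293 in the same order. Both carry the suffix of probe sets that can match more than 1 transcript. The RNA of Hdc and that of Slc18a2 differed in opposite directions in LSK, with Hdc higher, short of 2-fold, and Slc18a2 lower in the Fbw7-deficient cells.

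The high-affinity IgE receptor has an alpha chain that binds IgE, encoded by Fcer1a (chr1:173221269-173227232), a beta chain that amplifies the signal, encoded by Ms4a2 (chr19:11615517-11623790), and a signalling gamma chain, encoded by Fcer1g. Fcer1a read 72.1 (wild-type) and 59.0 (Fbw7-deficient) in LSK, and 111 and 294 in MP. Only the last reached the level filter. Its log2 difference was 1.40 in MP, 2.64-fold, against a wild-type value that is not shown to be above background. With that value raised to the filter it was 0.91, short of 2-fold. In LSK it was -0.29 with both values under the filter, so no direction is established there.

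Ms4a2 gave 642, 523, 2845 and 2407 on its brighter probe set, in the order of LSK then MP, wild-type before Fbw7-deficient in each. Both MP arrays stood far above both LSK arrays, and the genotypes were close, at log2 -0.29 in LSK and -0.24 in MP. Its dimmer probe set gave 0.45 in LSK, from 58.4 and 79.7, both under the filter, and -0.22 in MP, so the direction in LSK was not settled. Fcer1g, named after its values were seen because it completes the receptor, read 672, 875, 1194 and 650.4 in that order. Its log2 difference was 0.38 in LSK and -0.88 in MP, short of 2-fold in both.

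Mcpt8 encodes mast cell protease 8, a serine protease that in the mouse marks basophils (chr14:56082163-56085499). It gave 780.2 (wild-type) and 1736 (Fbw7-deficient) in LSK, and 2007 and 3404 in MP. Each Fbw7-deficient array was above its wild-type partner. The log2 difference was 1.15 in LSK, 2.23-fold, and 0.76 in MP, 1.70-fold.

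Among the eosinophil genes, Epx (chr11:87863997-87875536) encodes eosinophil peroxidase, and Prg2 and Prg3 encode the major basic protein and its homolog. Epx read 992 (wild-type) and 731 (Fbw7-deficient) in LSK, and 1779 and 4654 in MP. The Fbw7-deficient MP array stood apart from the other 3. Its log2 difference was 1.39 in MP, 2.62-fold, and -0.44 in LSK.

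Prg3 showed the same order of arrays, with 456 (wild-type) and 397 (Fbw7-deficient) in LSK, and 777 and 1902 in MP. The log2 difference was 1.29 in MP, 2.45-fold, and -0.20 in LSK, about the median disagreement of probe sets there. Prg2 is its neighbour on chromosome 2, with 4563 bases between the genes in assembly GRCm38.p6 (chr2:84980461-84983632 for Prg2 and chr2:84988196-84996559 for Prg3). It did not follow Prg3. Prg2 read 2447, 1769, 7829 and 7800 in the order of arrays above, a log2 difference of -0.47 in LSK and of -0.01 in MP. The last has no settled sign, since centring the arrays on their medians gave 0.02. Of 12239 genes, 36 were as far up in MP as Epx or farther and 40 as Prg3.

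Counted at 2-fold in LSK, 1 of the 9 genes was higher in Fbw7-deficient cells (Mcpt8), beside 1.79% of all 12239 genes past the filter, and 2 were lower (Cpa3 and Slc18a2), beside 1.95%. In MP, 3 were higher (Fcer1a, Epx and Prg3), beside 0.825%, and 2 were lower (Cpa3 and Slc18a2), beside 1.49%. Fcer1a and Slc18a2 had to differ between some arrays to be counted. With values under the filter raised to it, 2 were higher in MP (Epx and Prg3), beside 0.695% of all genes, and 1 lower (Cpa3), beside 1.19%. In LSK the 1 and 2 genes were still those named, beside 1.52% and 1.72%. The median log2 difference of the 9 was -0.29 in LSK and -0.01 in MP, beside 0.00 for all genes in both. A median near 0 in MP therefore covers differences from -1.37 to 1.40. The genes were proposed with results of these arrays known, so the counts describe them and are no independent evidence about the lineage. In MP-gated or LSK-gated RNA, fewer cells of a type and less RNA per cell cannot be told apart.

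**Figure D2:**
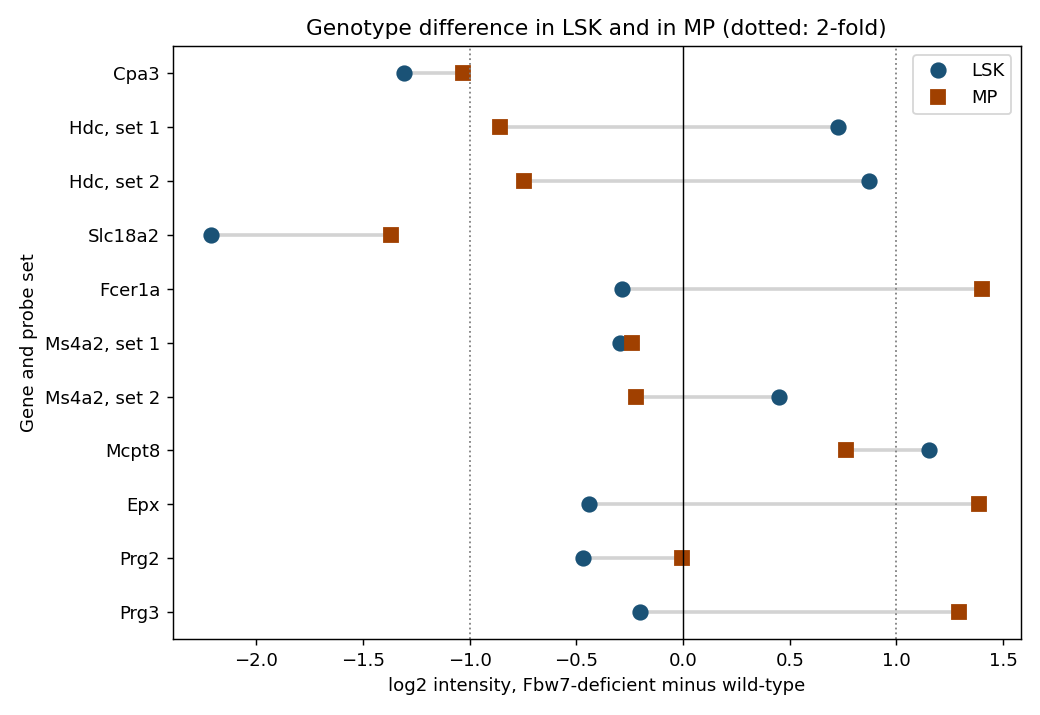
Log2 intensity difference, Fbw7-deficient minus wild-type, for each probe set in LSK (circles) and MP (squares), with 2-fold dotted. Cpa3 and Slc18a2 lie left of 0 in both gates, Mcpt8 lies right in both, and Epx, Prg3 and Fcer1a are past 2-fold in MP alone, Fcer1a against a wild-type value under the level filter.

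The difference between the genotype differences, LSK minus MP, was log2 -1.83 for Epx and -1.49 for Prg3. For Fcer1a it was -1.69, from 3 values under the filter, and -0.91 with those raised to it. Hdc had the opposite sign at 1.58, and 1.62 on its other probe set. At 2-fold these make 3 of 9 genes lower, Fcer1a included, beside 1.32% of all genes, and 1 higher, beside 2.20%. Slc18a2 was at -0.84, Prg2 at -0.46, Cpa3 at -0.28, Ms4a2 at -0.05 and Mcpt8 at 0.39. The dimmer probe set of Ms4a2 gave 0.67, with both LSK values under the filter. All 4 arrays enter each of these values once, and none was tested.

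MP cells served in the study as the reference for genes enriched in LSK. In wild-type marrow 8 of the 9 genes were lower in LSK than in MP, with a median log2 difference of -0.84 beside -0.02 for all genes. Past 2-fold were Hdc (-2.47), Ms4a2 (-2.15), Prg2 (-1.68) and Mcpt8 (-1.36), so 4 of 9 were 2-fold lower beside 2.40% of all genes. None of the 9 was 2-fold higher, beside 5.05%. Slc18a2 was the 1 gene above 0, at 0.83, while Epx (-0.84), Prg3 (-0.77), Fcer1a (-0.63) and Cpa3 (-0.57) were below it within 2-fold.

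In Fbw7-deficient marrow all 9 values were below 0, with a median of -2.14. Past 2-fold were Epx (-2.67), Fcer1a (-2.32), Prg3 (-2.26), Ms4a2 (-2.20) and Prg2 (-2.14). This is 5 of 9 genes beside 1.63% of all genes, with none 2-fold higher beside 3.86%. Fcer1a leaves the 5 with its LSK value raised to the filter, at -0.91. Mcpt8 lay just short of 2-fold at -0.97 and passed it at -1.01 with the arrays centred on their medians. Hdc was at -0.88, beside -2.47 in wild-type marrow. Slc18a2 was at -0.02, beside 0.83, with both Fbw7-deficient values under the level filter. Ms4a2 stood at nearly the same distance in both genotypes on its brighter probe set. Its dimmer probe set gave -2.10 in wild-type and -1.43 in Fbw7-deficient marrow, with both LSK values under the filter.

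**Figure D3:**
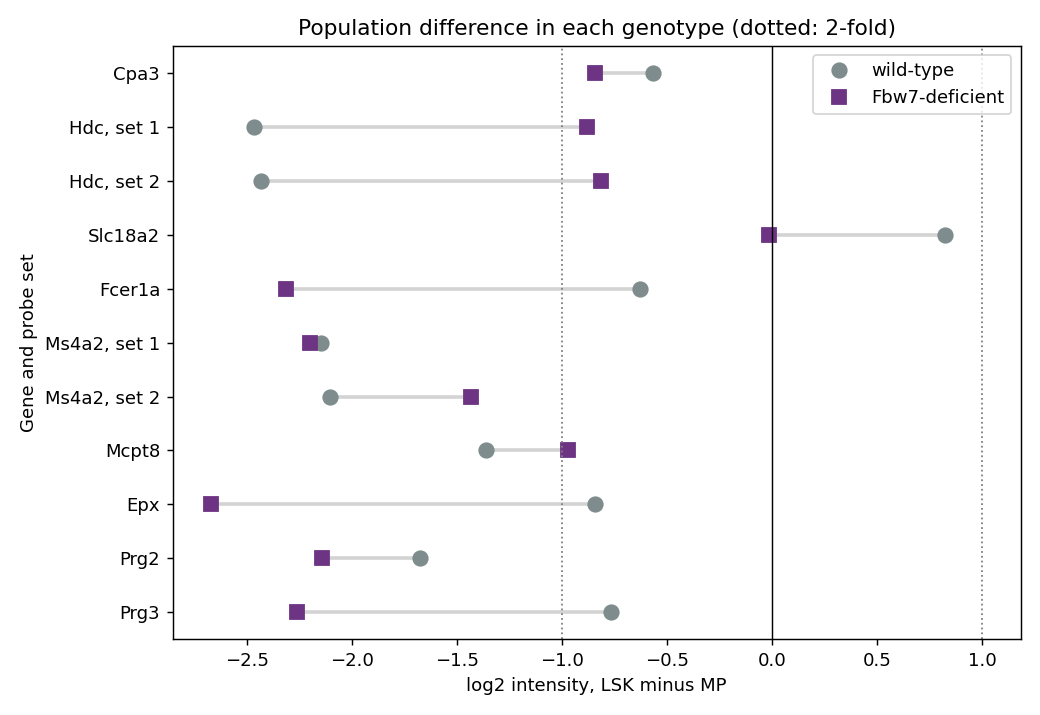
Log2 intensity difference, LSK minus MP, for each probe set in wild-type (circles) and Fbw7-deficient (squares) marrow, with 2-fold dotted. Epx, Prg3 and Fcer1a lie farther below 0 in Fbw7-deficient than in wild-type marrow, Hdc lies nearer to 0, and set 1 of Ms4a2 is at -2.15 and -2.20.

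Likeness of pattern was measured as the Euclidean distance between log2 profiles over the 4 arrays, each centred on its own mean, against all 12239 genes. Such a distance over 4 arrays describes these arrays and says nothing of shared function. The gene nearest to Fcer1a was Prg3, at 0.107, and the second was Epx, at 0.305. For Epx the nearest were Prg3 (0.303) and Fcer1a (0.305). Ms4a2 was nearest to Prg2 (0.336), and Prg2 had Ms4a2 second, after C1qtnf12 (0.228). For Prg3 the nearest were Fcer1a (0.107), Gdf3 (0.243), which encodes a growth and differentiation factor, and Ntn4 (0.248), which encodes a netrin, both nearer than Epx. In the profile of Fcer1a 3 of 4 values are under the level filter, so its distances are a description of dim values. Epx and Prg3 were both highest in Fbw7-deficient MP, and Ms4a2 and Prg2 were high in both MP arrays.

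The other members were nearest to genes outside the list. Cpa3 lay near Slc36a4 (0.431), the platelet factor gene Pf4 (0.490) and Frg1 (0.533). Slc18a2 lay near the NF-kB feedback inhibitor gene Tnfaip3 (0.440), the thioredoxin inhibitor gene Txnip (0.451) and Slc35d3 (0.492). Hdc lay near Dram1 (0.328), the annexin gene Anxa3 (0.611) and the syntaxin gene Stx11 (0.613), and Mcpt8 near Snhg3 (0.195), Plpp1 (0.197) and Mns1 (0.205). Although Cpa3 and Slc18a2 were both lower in Fbw7-deficient cells, they were 1.30 apart. Cpa3 was higher in MP in both genotypes, and Slc18a2 was higher in LSK in wild-type marrow and alike in both gates in Fbw7-deficient marrow, under the filter.

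**Figure D4:**
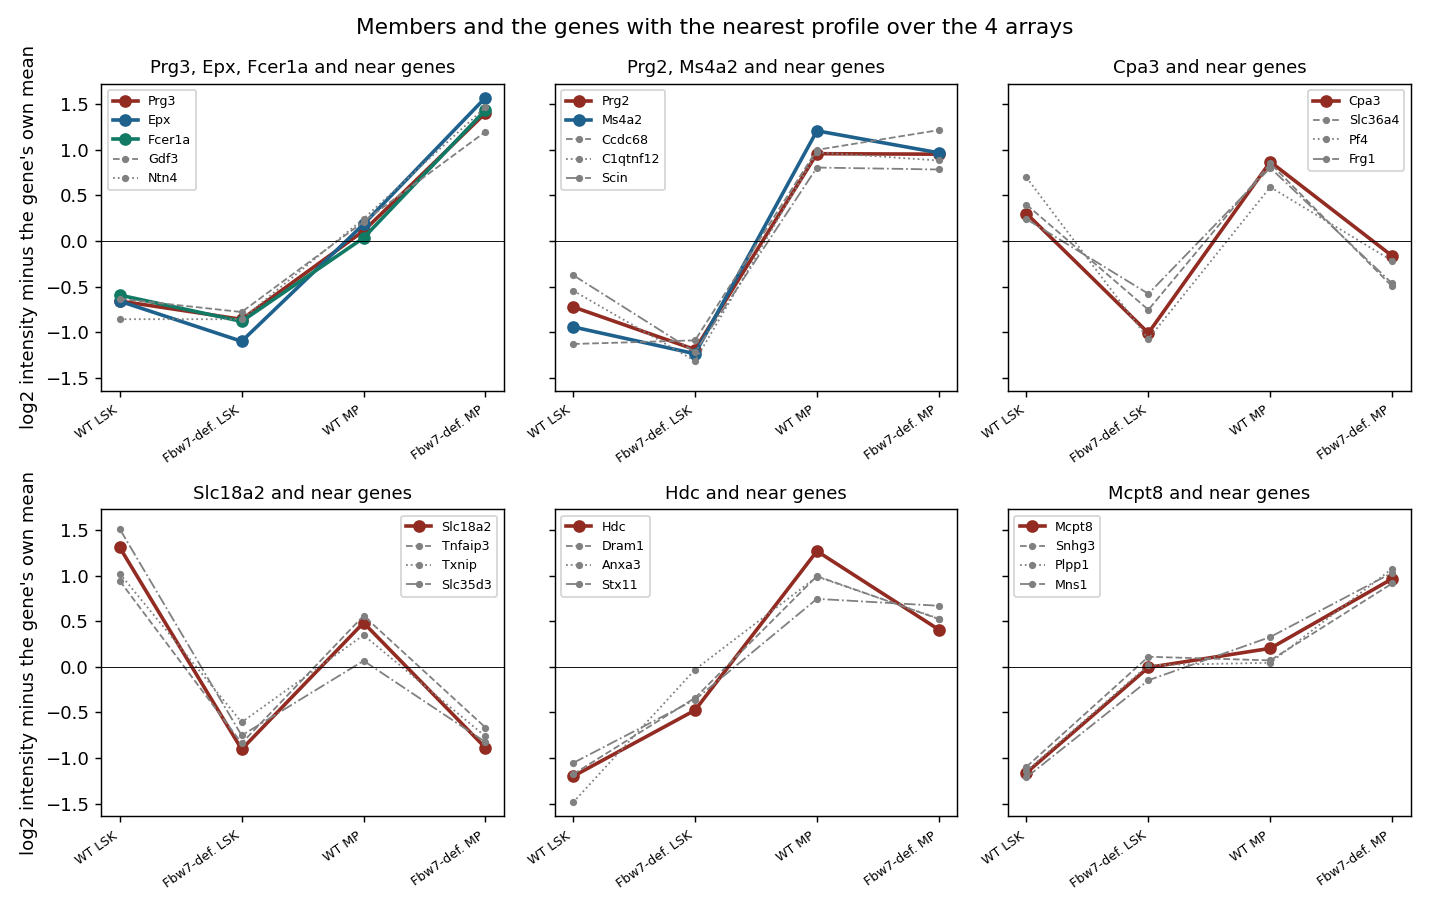
Log2 intensity minus the gene's own mean on the 4 arrays, for members (coloured) and the nearest other genes (grey), with lines that only join the values of a gene. Prg3, Epx and Fcer1a peak in Fbw7-deficient MP, Prg2 and Ms4a2 are high in both MP arrays, and Cpa3 and Slc18a2 dip in both Fbw7-deficient arrays.

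Promoters of genes called in the same direction are shown because GATA factors bind regulatory sequence of these lineages. Each window runs from 250 bases before to 50 after a transcript start, 300 in all, from RefSeq, assembly GRCm38.p6, written on the strand of the gene. Promoters of 9 of the 10 genes matched, as 10 windows. Capitals mark the GATA letters AGATAA or TGATAA, searched on both strands as all motifs here were. The first pair belongs to the genes lower in both gates, on chr3:20242132-20242431 (minus strand) for Cpa3 and chr19:59260628-59260927 (plus strand) for Slc18a2.
Cpa3: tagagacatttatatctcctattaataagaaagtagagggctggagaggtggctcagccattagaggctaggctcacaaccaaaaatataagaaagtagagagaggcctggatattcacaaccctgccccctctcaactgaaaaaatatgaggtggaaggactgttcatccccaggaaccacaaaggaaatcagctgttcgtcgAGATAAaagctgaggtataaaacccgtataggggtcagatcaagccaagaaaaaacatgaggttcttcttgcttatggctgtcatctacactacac
Slc18a2: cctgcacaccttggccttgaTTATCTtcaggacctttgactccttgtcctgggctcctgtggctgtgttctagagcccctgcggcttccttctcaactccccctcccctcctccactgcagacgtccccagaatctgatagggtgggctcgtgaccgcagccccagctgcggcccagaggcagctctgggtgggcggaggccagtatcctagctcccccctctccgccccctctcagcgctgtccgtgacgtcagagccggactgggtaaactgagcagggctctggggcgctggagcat
The other 3 belong to the genes higher in Fbw7-deficient MP, on chr1:173227180-173227479 (minus strand) for Fcer1a, chr2:84987965-84988264 (plus strand) for Prg3 and chr11:87875487-87875786 (minus strand) for Epx.
Fcer1a: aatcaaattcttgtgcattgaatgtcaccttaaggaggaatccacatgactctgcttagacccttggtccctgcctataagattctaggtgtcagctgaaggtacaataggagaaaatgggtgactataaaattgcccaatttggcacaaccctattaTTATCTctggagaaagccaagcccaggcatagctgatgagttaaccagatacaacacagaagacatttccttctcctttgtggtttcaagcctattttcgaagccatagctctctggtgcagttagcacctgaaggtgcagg
Prg3: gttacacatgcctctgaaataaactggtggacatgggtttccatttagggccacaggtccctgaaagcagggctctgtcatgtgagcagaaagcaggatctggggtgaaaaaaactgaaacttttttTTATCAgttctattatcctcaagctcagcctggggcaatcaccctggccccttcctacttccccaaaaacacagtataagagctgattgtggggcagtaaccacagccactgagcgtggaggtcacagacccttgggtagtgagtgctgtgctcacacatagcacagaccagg
Epx: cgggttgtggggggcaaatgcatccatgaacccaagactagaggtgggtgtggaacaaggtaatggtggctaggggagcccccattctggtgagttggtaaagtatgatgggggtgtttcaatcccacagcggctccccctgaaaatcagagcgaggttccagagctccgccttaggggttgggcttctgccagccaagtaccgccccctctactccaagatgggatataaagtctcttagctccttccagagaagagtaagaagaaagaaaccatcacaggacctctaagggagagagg

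A GATA match lay 46 bases before the start in Cpa3, 230 before it in Slc18a2, 92 before it in Fcer1a and 123 before it in Prg3. Ms4a2 had 3 matches, 224, 37 and 11 bases before its start. Il1rl1 had a match in each of its 2 windows. By gene, 6 of the 9 with a window held AGATAA or TGATAA, 5 of them with a measured level. By window, 7 of the 10 did, beside 18.6% of the 32851 windows of all genes. Epx, Hdc and Mcpt8 had none of these letters in the window. Of the genes higher in Fbw7-deficient MP, Prg3 and Fcer1a had 1 match each and Epx had none. The E-box letters CACGTG or CATGTG of MITF, a transcription factor of mast cells, were in 2 windows (Fcer1a and Prg3; 20.4% of all windows). The RUNX letters TGTGGT were in windows of 5 genes, Cpa3, Fcer1a, Mcpt8, Prg3 and Il1rl1. By window this was 5 of 10, beside 16.8% of all windows. The C/EBP letters TTGCGCAA were in none (0.183% of all windows). Matches of AGATAA and TGATAA can overlap at their ends, and a match is a description of the letters, not of binding.

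Of 13 transcription regulators of these lineages that were measured, none was 2-fold apart between genotypes in LSK, and Cebpa and Irf8 were the 2 that were 2-fold lower in Fbw7-deficient MP. Gata2, needed in stem cells and in mast cells and basophils, read 2863 (wild-type) and 1550 (Fbw7-deficient) in LSK, and 2220 and 1480 in MP, with log2 differences of -0.89 and -0.58. Gata1, a factor of erythroid, eosinophil and mast cells, was at 0.22 in LSK and 0.61 in MP. Cebpa, a myeloid factor, was at 0.41 in LSK and went from 1416 to 706 in MP, just past the 2-fold line. Irf8, of monocyte and dendritic cells, was at 0.76 in LSK and -1.56 in MP. Mitf was at -0.51 and -0.52.

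Among 10 surface and cytokine receptor genes past the filter, none was 2-fold apart between genotypes in either gate. The median log2 difference was -0.22 in LSK and -0.29 in MP. Kit, the stem cell factor receptor on which mast cells depend, was at -0.34 and -0.64. Csf2rb, the common beta chain of the interleukin-3 and interleukin-5 receptors, named after its values were seen, was at 0.38 in LSK and -0.85 in MP, with -1.11 in MP on its other probe set.

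On their brightest probe sets the 10 genes of IgE receptor signalling that passed were all below 0 in MP, and 9 of 10 were in LSK. The medians were -0.33 and -0.42, and none was past 2-fold. Some of their other probe sets above the filter lay above 0, up to 0.26 in MP and 0.11 in LSK. Of 6 genes of granule proteases and proteoglycan, Ctsg, which encodes cathepsin G and is also a neutrophil gene, was 2-fold higher in LSK (10997 to 23750) and none was in MP. Of 7 genes of mediator synthesis, the prostaglandin synthase gene Ptgs2 was lower in MP (303 to 98.0, log2 -1.63). Ear3, of the eosinophil ribonucleases, was the 1 gene of 3 that passed, at -0.22 and 0.20.

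Genes that mark the mature cells were read beside the members. Mcpt4, a connective tissue mast cell protease gene, read 41.2 to 47.1 over the arrays, and the tryptase gene Tpsb2 read 152 to 165. The chymase gene Cma1 read 143, 89.9, 118 and 212 in the order of LSK then MP, wild-type before Fbw7-deficient in each. For eosinophils, the interleukin-5 receptor gene Il5ra read 74.7 to 79.5 and the eotaxin receptor gene Ccr3 50.2 to 60.9. Siglecf was above the filter on every array, at 1035, 769, 1644 and 1336 in the order given for Cma1. Its log2 genotype difference was -0.43 in LSK and -0.30 in MP, below 0 in MP where Epx and Prg3 were higher. The basophil gene Cd200r3 read 21.8 to 24.4. Of these 7 markers, all of the fixed marker list of the 3 cell types that were measured beside Kit and the members, 4 were under the filter on every array. Other genes of these cells were mixed. Ear3 (568 to 1211) and the leukotriene synthase gene Ltc4s (245 to 404) were above the filter on every array. The probe set of Ear3 carries a suffix of sets that can match other transcripts. From the same lists Rnase2a, Rnase2b, Hpgds, Il4, Il13 and Il6 were under the filter on every array. The members stood above the filter on all arrays for 7 of 9 genes, while Il5ra, Ccr3, Mcpt4 and Cd200r3 were not shown to be above background. The filter is the median of all values, so passing it does not by itself show that a transcript was present.

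**Figure D5:**
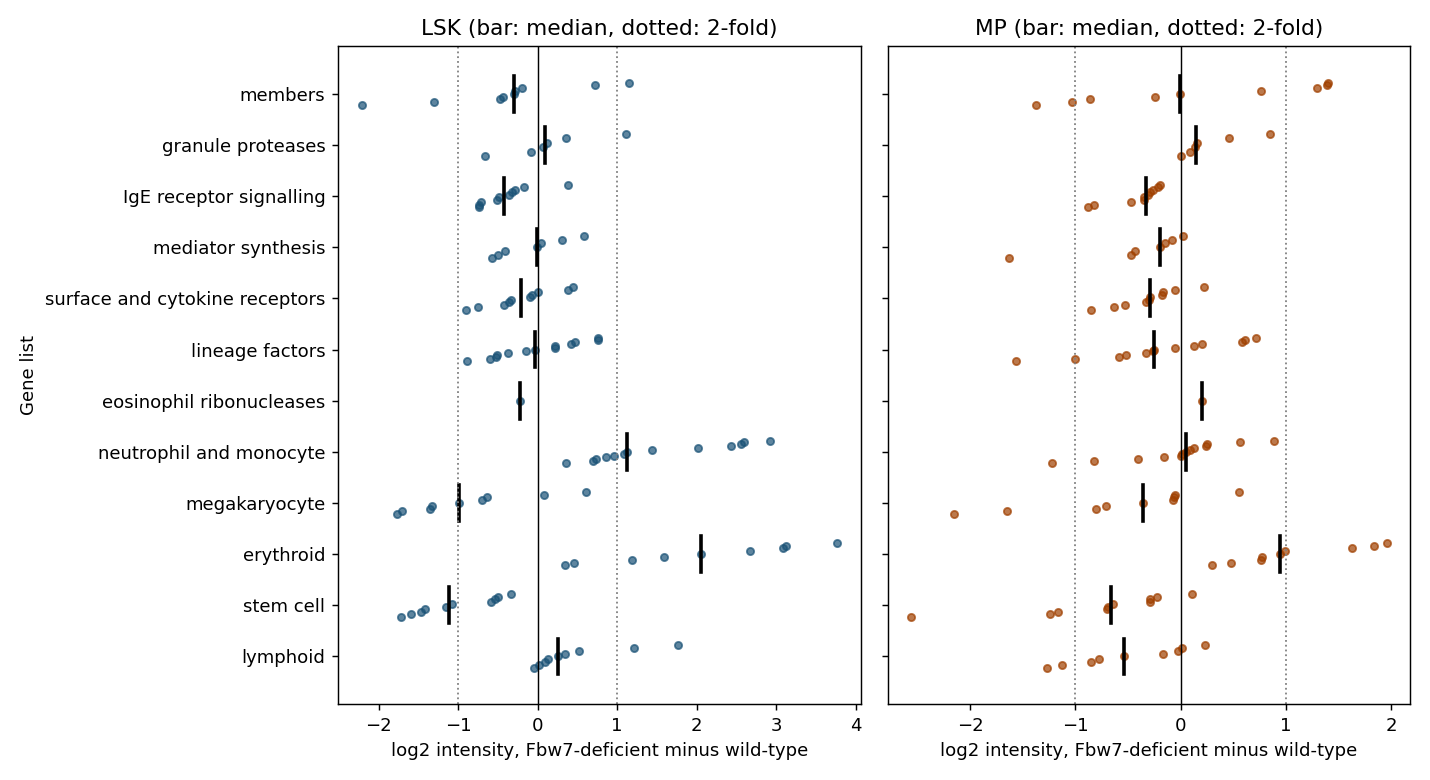
Log2 intensity difference, Fbw7-deficient minus wild-type, for each gene past the filter in 12 lists, in LSK and in MP, with the median as a bar and 2-fold dotted. The 9 members (top) spread from -2.21 to 1.15 in LSK and from -1.37 to 1.40 in MP, while the 13 lineage factors stay within 2-fold in LSK.

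Marker genes of other cell types also differed between genotypes. In LSK, 8 of 13 neutrophil and monocyte genes and 7 of 9 erythroid genes were 2-fold higher, and 4 of 9 megakaryocyte and 6 of 10 stem cell genes were 2-fold lower in Fbw7-deficient cells. Of 9 lymphoid genes, 2 were 2-fold higher in LSK. In MP, 3 of 9 erythroid genes were 2-fold higher, and 1 of 13 neutrophil and monocyte, 2 of 9 megakaryocyte, 3 of 10 stem cell and 2 of 9 lymphoid genes were 2-fold lower. Of all 12239 genes, 1.79% were 2-fold higher and 1.95% lower in LSK, and 0.825% higher and 1.49% lower in MP. The lists were written with earlier results of these data known. The summed intensity of the 10 named erythroid genes went from 42365 to 70731 in MP, where Epx, Prg3 and Fcer1a were higher. That of the 10 named megakaryocyte genes went from 17516 to 7858 in LSK and from 11939 to 7023 in MP, where Cpa3 and Slc18a2 were lower. The sum of the 10 named stem cell genes fell in both gates too, from 52163.5 to 29765 in LSK and from 15279 to 6717 in MP. Those of the IgE receptor signalling genes and of the surface and cytokine receptor genes also fell in both gates. In LSK, where Mcpt8 and Hdc were higher, the sum of the 13 neutrophil and monocyte genes went from 104218 to 204585 and that of the erythroid genes from 8458 to 30462. No marker is at 0 on this scale, and the part of these cells in the results was not tested.

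Array facts that touch these values are few. For Gapdh, the 3' control probe set over the 5' one gave 4.30 on the wild-type LSK array and 2.60 to 2.95 on the others, and that array enters every LSK genotype difference above. The poly-A RNA controls added before labelling were lower by a median log2 of -0.63 on the Fbw7-deficient MP array and differed by -0.03 in LSK, while the hybridisation controls differed by -0.09 and -0.03. Their part in the results was not tested.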

How the data were processed

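RNA of 4 sorted populations was hybridised to 1 Affymetrix array each; 20 ng of total RNA was amplified in 2 cycles, per the labels' protocols. The authors deposited intensity per probe set, for which the submitters' processing notes name RMA; its version and settings were not given in the sources used here. The linear scale was read from the range of the values. RMA equalises arrays and compresses dim differences, so shared shifts in RNA content are not seen, and the number of arrays limits the precision.

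Values were taken to log2 here (Python 3.11.15, pandas 2.3.3). Of 45101 probe sets, 34945 name 1 gene, 932 several and 9224 none; symbols came from the platform annotation, updated by gene ID through RefSeq (GRCm38.p6). Each gene is represented by its brightest probe set over the 4 arrays; 12239 of 18193 genes passed the level filter. A linear model without an interaction was not used, since it leaves a single residual, which is itself a quantity reported here. The procedure was tested on simulated data. Alternatives were another probe set rule, filters, scalings, a pseudocount, a fold of 1.5 and a floor at the filter.

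Most genes outside the members were named where they were past 2-fold between genotypes, up to 4 per list, as fixed lineage genes and cell type markers, or as the 3 nearest profiles. Fcer1g, Csf2rb, Ear3, Ltc4s, Rnase2a, Rnase2b, Hpgds, Il4, Il13 and Il6 were named outside these rules, with their values known. Genes of the lists of other cells are given as counts and sums. Members, lists and motifs were chosen with earlier results of these data known.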

Additional observations from a re-analysis of the deposited data

Results flagged for a closer look

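For 4 genes the genotype differences in LSK and MP had opposite signs and lay at least 2-fold apart, with each sign resting on 1 array pair; the difference between the gates was not tested. Hdc was higher in Fbw7-deficient LSK and lower in Fbw7-deficient MP on both probe sets, a difference of log2 1.58 between the gates. Epx (-1.83) was -0.44 in LSK and 1.39 in MP. The LSK value of Epx was past the median disagreement of probe sets there, 0.19, but short of its 90th percentile, 0.56. Of all genes past the filter, 11.7% were as far down in LSK or farther, so the sign of Epx there is not settled. Prg3 (-1.49) was -0.20 in LSK, about the median disagreement of probe sets, so its sign there is not settled. Fcer1a (-1.69) was under the level filter in both LSK arrays and has no established direction there; with values under the filter raised to it, the difference was -0.91.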

How the results depend on the processing

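No paired analysis was possible because each group has 1 array, and no array could be left out. Changing the level filter or leaving out probe sets cannot move a single difference of most members, so those alternatives bear on counts. A pseudocount of 50 moved no member across 0 or 2-fold. With the arrays centred on their medians or quantile-normalised, Mcpt8 in Fbw7-deficient LSK minus MP passed 2-fold (-1.01 and -1.02), and Prg2 in MP changed sign (0.02 and 0.01). Averaging every probe set of a gene, Ms4a2 changed sign in LSK (0.08) and in the difference of the genotype differences (0.31). With the stricter filter, at the upper quartile, 7 members were left without Slc18a2 and Fcer1a. Then 1 member (Cpa3) in place of 2 was lower in LSK (2.11% of all genes) and 1 in MP (1.79%). Without probe sets ending in _s_at or _x_at Hdc had no value, and 0 members were 2-fold higher in the difference of the genotype differences (2.24% of all genes). At a fold of 1.5, the members higher in Fbw7-deficient LSK were 2 (4.5% of all genes), those higher in wild-type LSK than MP 1 (12.7%), those lower in it 7 (6.91%), and those lower in Fbw7-deficient LSK than MP 8 (4.74%). With values under the filter raised to it, a setting added after the data were seen, 1 member was lower in MP (Cpa3; 1.19%), and Slc18a2 in MP (-0.87) and Fcer1a in MP (0.91), in Fbw7-deficient LSK minus MP (-0.91) and in the difference of differences (-0.91) fell short of 2-fold.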
